A study of Arabidopsis thaliana with 18 samples.

Results

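The loci described here are 150 nuclear genes of Arabidopsis thaliana that the array annotation names by a locus code alone (AT1G to AT5G) and whose transcripts lay furthest toward the polysomal part of a sucrose gradient in gcn2 and in wild-type seedlings. Of the 22810 probe sets on the Affymetrix ATH1 array, 11933 were annotated to 1 such locus, and 3547 of these had a mean log2 signal of 6 or more in wild-type total RNA, called the floor below. For each, polysome loading was taken as the mean log2 signal in polysomal RNA minus that in non-polysomal RNA, separately in gcn2 and in wild type. The 150 probe sets with the largest value of the smaller of the 2 loadings, 4.23% of those at the floor, are the members, and they stand for 150 different loci. The choice therefore used the loading in both genotypes and a lower limit on wild-type total RNA. Their loadings are given as a description and carry no test.

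The arrays compared seedlings labelled gcn2, with no allele named, with wild type, both of the Landsberg erecta line and grown alike without a further treatment. Aerial parts were taken from seedlings at 10 days of age, 4 h into the light period, and the lysates were separated on sucrose gradients. The 6 bottom fractions were pooled as polysomal RNA and the 6 top fractions as non-polysomal RNA, and total RNA was hybridized as well. This gave 6 groups of 3 arrays each, namely polysomal, non-polysomal and total RNA of gcn2 and of wild type. The labels do not say whether the replicates were grown separately, so the errors measure the spread between these samples, which may be technical.

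Ribosomes that follow each other along a transcript form a polysome, which sediments faster in sucrose than a free transcript or one that carries a lone ribosome. The share of a transcript found in the polysomal part of the gradient is widely read as a measure of how much of it is being translated. GCN2 is a protein kinase that phosphorylates the translation initiation factor eIF2 when amino acids run short and thereby lowers initiation on most transcripts. A locus code gives a gene's chromosome and its order along it and nothing of its product. For all members but 1 the sources used here hold no descriptive name, so they are given by code and without a role. The exception is AT1G54410, listed with the synonyms AtHIRD11 and dehydrin, a family of hydrophilic proteins that accumulate under drought and cold.

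Array medians lay between 5.05 and 5.18 on all 18 arrays, so every value is relative to an array-wide level and the amount of RNA in a fraction is not seen. The bacterial BioB and BioC controls read 9.18 to 9.56 in gcn2 polysomal and 9.91 to 10.29 in gcn2 non-polysomal RNA, and 8.62 to 9.34 in wild-type polysomal and 9.88 to 10.12 in wild-type non-polysomal RNA. In the control transcripts with probe sets at each end, the 3′ signal exceeded the 5′ signal most on the fraction arrays. In gcn2 the excess was 3.49 to 3.90 in polysomal and 4.11 to 4.97 in non-polysomal RNA, without overlap, against 3.11 to 3.14 in total RNA. In wild type it was 3.58 to 3.89 in polysomal and 3.60 to 4.27 in non-polysomal RNA, against 3.12 to 3.40 in total RNA. These controls move with the RNA type. In non-polysomal RNA the median 3′ excess was also larger in gcn2 (4.50) than in wild type (3.81). The part of these controls in the loadings and in the comparisons of the genotypes was not tested. Of the markers of green tissue, 5 of 11 had a probe set annotated to that gene alone, with wild-type total RNA means of 8.71 to 13.91. Of the root markers 3 of 10 had one. EXPA7 (3.82) and EXPA18 (4.41) lay under the median of every array there, while PYK10, a beta-glucosidase of endoplasmic reticulum bodies, read 10.75. The 4 pollen markers and the remaining green and root markers had none and were not analysed here, and some may lie on probe sets that are unnamed here.

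The best loaded locus was AT1G64370. It read 10.15, 10.41 and 10.11 in gcn2 polysomal RNA, against 7.22, 7.07 and 7.08 in gcn2 non-polysomal RNA. In wild type it read 10.26, 10.73 and 10.38 in polysomal RNA, against 6.84, 7.38 and 6.65 in non-polysomal RNA. Every polysomal array lay above every non-polysomal array by more than 2 on the log2 scale, and its loading was 3.10 (SE 0.18) in gcn2 and 3.50 (SE 0.18) in wild type, the largest of the 3547 loci at the floor in each genotype. Unless stated, the SEs of loadings and of their differences come from a fit that does not pair arrays by replicate number. AT4G19200 read 8.43, 8.64 and 8.56 in gcn2 polysomal RNA, against 5.92, 6.04 and 5.85 in gcn2 non-polysomal RNA, and 8.63, 9.16 and 8.74 in wild-type polysomal RNA, against 6.22, 6.43 and 5.83 in wild-type non-polysomal RNA. AT4G34290 read 9.91, 9.60 and 9.34 in gcn2 polysomal RNA, against 7.21, 6.80 and 6.47 in gcn2 non-polysomal RNA, and 9.56, 9.29 and 8.98 in wild-type polysomal RNA, against 7.0, 6.74 and 6.45 in wild-type non-polysomal RNA. AT5G45350 read 9.75, 9.90 and 9.66 in gcn2 polysomal RNA, against 7.30, 7.46 and 7.19 in gcn2 non-polysomal RNA, and 10.05, 10.29 and 9.84 in wild-type polysomal RNA, against 7.24, 7.47 and 6.96 in wild-type non-polysomal RNA. The polysomal and non-polysomal arrays of these 3 loci did not overlap in either genotype. The loading was 2.61 (SE 0.17) in gcn2 and 2.68 (SE 0.17) in wild type for AT4G19200. It was 2.79 (SE 0.22) in gcn2 and 2.54 (SE 0.22) in wild type for AT4G34290, and 2.45 (SE 0.15) in gcn2 and 2.83 (SE 0.15) in wild type for AT5G45350.

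Of the next 8 loci in rank, AT1G18210 had a loading of 2.39 (SE 0.15) in gcn2 and 2.35 (SE 0.15) in wild type. AT5G07030 stood at 2.21 (SE 0.18) in gcn2 and 2.39 (SE 0.18) in wild type. Its polysomal signal (7.94 ± 0.08 in gcn2 and 7.71 ± 0.13 in wild type, SD, n = 3 each) was below its total RNA signal (8.70 ± 0.16 and 8.55 ± 0.42 in the same order), so that its place rests on a non-polysomal signal of 5.73 ± 0.22 in gcn2 and 5.32 ± 0.16 in wild type. AT1G04800 stood at 2.09 (SE 0.23) in gcn2 and 2.31 (SE 0.23) in wild type, and AT1G64510, the brightest of the first 12 with 10.72 ± 0.16 in gcn2 polysomal RNA, at 2.11 (SE 0.12) in gcn2 and 2.02 (SE 0.12) in wild type. AT2G33850 was the dimmest of the 12. It read 6.18, 6.21 and 6.15 in gcn2 polysomal RNA, against 4.24, 3.81 and 4.46 in gcn2 non-polysomal RNA, and 6.22, 5.81 and 5.72 in wild-type polysomal RNA, against 3.88, 3.77 and 3.49 in wild-type non-polysomal RNA. Its non-polysomal values lay below every array's median, so its loading of 2.00 in gcn2 and 2.20 in wild type sets a moderate signal against a dim one. AT2G22230, AT5G01750 and AT3G52960 had loadings of 2.17, 2.00 and 2.1 in gcn2, and of 2.01, 2.02 and 1.99 in wild type, in that order. The named dehydrin AT1G54410 ranked 15. It read 12.06, 12.01 and 12.29 in gcn2 polysomal RNA, against 10.03, 10.28 and 10.17 in gcn2 non-polysomal RNA, and 12.15, 12.34 and 12.56 in wild-type polysomal RNA, against 9.87, 9.94 and 10.69 in wild-type non-polysomal RNA.

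**Figure D1:**
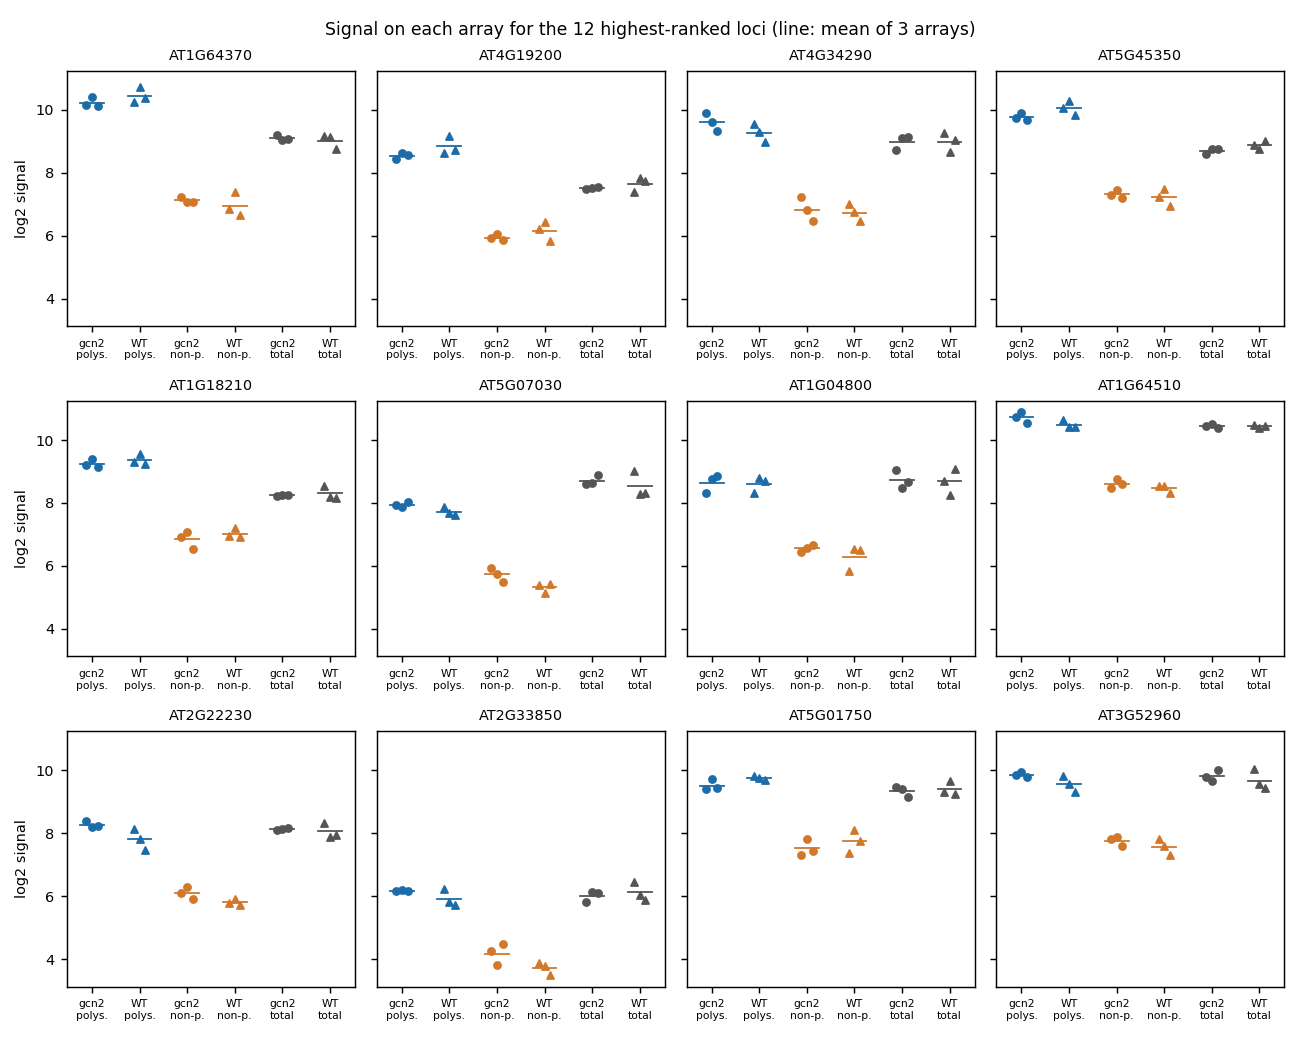
Log2 signal on each of the 18 arrays (points; circles gcn2, triangles wild type) for the 12 highest-ranked members, in polysomal (blue), non-polysomal (orange) and total RNA (grey), with the mean of 3 arrays as a line. In every panel the polysomal arrays sit above the non-polysomal arrays of the same genotype, while total RNA lies below, at or above the polysomal level depending on the locus.

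Over all 150 members the loading ran from 1.21 to 3.10 in gcn2, with a median of 1.58, and from 1.21 to 3.50 in wild type, with a median of 1.57. The 3397 other loci at the floor had medians of 0.08 in gcn2 and 0.10 in wild type. A value of 2 or more was reached by 13 members in gcn2 and 22 in wild type, and no other locus at the floor reached it in either genotype. Over all 22746 probe sets it was reached by 48 in gcn2 and 68 in wild type. Among the nuclear genes with a symbol and the same floor, 3 reached it in gcn2 and 2 in wild type. The polysomal and non-polysomal arrays of 1 genotype and replicate number are called a gradient here, although the titles do not say that they came from the same gradient. Each member had a higher polysomal than non-polysomal signal in all 6 gradients, as did 27.8% of all probe sets over the 3 gcn2 gradients and 27.8% over the 3 wild-type gradients, and in 141 members the difference was at least 1 in every gradient. The median over members was 1.58, 1.62 and 1.57 in gcn2 gradients 1, 2 and 3, and 1.57, 1.59 and 1.57 in wild-type gradients 1, 2 and 3. The 6 gradients thus had nearly the same median. The spread of a member's loading over 3 gradients had a median SD of 0.21 in gcn2 and 0.19 in wild type. It was widest for AT1G04680 in gcn2 (SD 0.62) and for AT1G24575 in wild type (SD 0.56). The choice used these contrasts, so counts of members called in them are fixed by it. Centring each array on its BioB and BioC controls lifts the members' median to 2.43 in gcn2 and 2.51 in wild type, and that of all probe sets to 0.81 and 0.86, against −0.04 and −0.07 on the deposited scale.

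The lowest-ranked members were AT4G29680, AT5G51010 and AT1G78890. The smaller of their loadings was 1.21 for AT4G29680, 1.21 for AT5G51010 and 1.21 for AT1G78890. AT1G01300, AT1G21670 and AT3G52220 were next in order and fell outside, at 1.21 each. The limit thus cuts a continuous distribution, and the last members differ from the first loci outside by less than the errors of either.

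**Figure D2:**
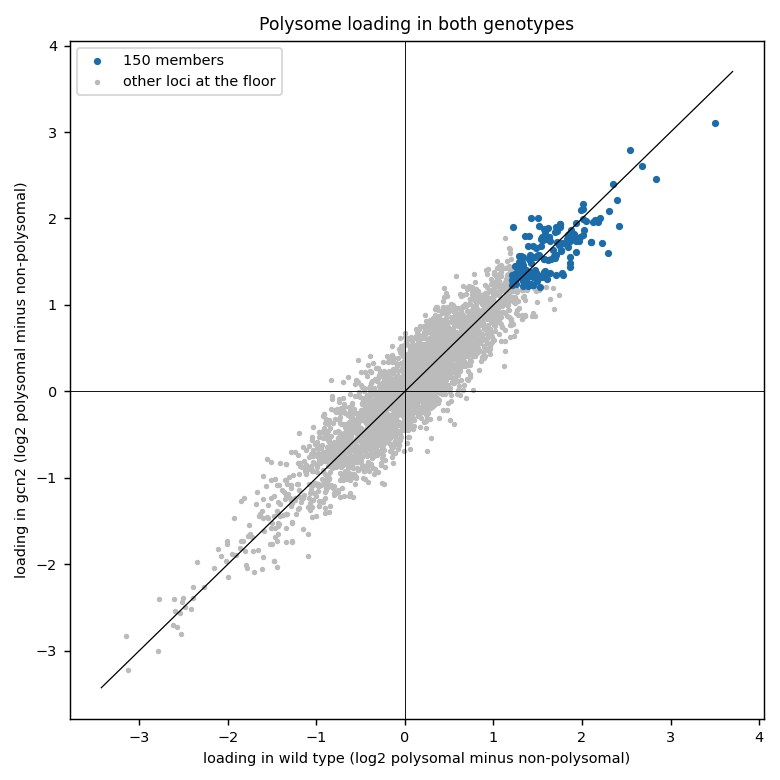
Polysome loading in gcn2 (vertical axis) against wild type (horizontal axis), both as log2 polysomal minus non-polysomal signal, for the 150 members (blue) and the 3397 other loci at the floor (grey), with the line of equality. The members form the upper right end of a single elongated cloud and are not separated from it.

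The loci at the floor were also ranked on 1 genotype and their loading was read in the other. The genotypes share no array, but the floor was set on wild-type total RNA. The 150 loci with the largest loading in wild type had a gcn2 loading of 0.87 to 3.10 with a median of 1.58, while the 3547 loci at the floor had a gcn2 median of 0.12. In limma, over all 22746 probe sets that are not controls, 149 of these 150 were higher in gcn2 polysomal RNA at an adjusted p of 0.05, against 29.5% of the loci at the floor and 15.1% of all probe sets. The 150 ranked on gcn2 alone had a wild-type loading of 0.78 to 3.50 with a median of 1.57, and 149 passed in wild type, against 28.7% of the loci at the floor and 15.2% of all probe sets. These background shares depend on the scaling. With each array centred on BioB and BioC, all 150 of the loci ranked on wild type passed in gcn2, against 67.4% of the loci at the floor and 68.6% of all probe sets, and all 150 ranked on gcn2 passed in wild type, against 73.4% and 75%. The medians were then 2.43 in gcn2, against 0.97 over the loci at the floor, and 2.51 in wild type, against 1.07. Of the 150 members, 128 were also among the 150 ranked on wild type and 123 among those ranked on gcn2. The genotypes' loadings correlated at r = 0.93 over the 3547 loci (Pearson, a description across genes, which are not independent replicates). Gradients of the same replicate number also deviated together, so the genotypes are not fully separate measurements. Most loci in both lists are members, so the readings split the arrays that chose the members. The limma calls took each probe set's error from all groups, including the arrays that ranked the loci. These calls describe the fit and are no independent test.

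The same was done with the replicate numbers. Loci chosen on replicates 2 and 3 had a loading in gradient 1 of 0.61 to 2.93 in gcn2, with a median of 1.54, and of 0.70 to 3.42 in wild type, with a median of 1.56. Chosen on replicates 1 and 3, they had medians in gradient 2 of 1.62 in gcn2 and 1.58 in wild type. Chosen on replicates 1 and 2, they had medians in gradient 3 of 1.53 in gcn2 and 1.52 in wild type. All 150 were above 0 in each of these 6 readings, while of the loci at the floor 55.5% to 58.3% were, or 88.1% to 96.8% with control centring. Between 133 and 135 of the 150 members were chosen again in each case. These readings thus split the arrays that chose the members, and the replicates may be technical. The readings describe the loci and are no independent test.

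The members were bright transcripts. In total RNA they had a median of 8.04 in gcn2 and 8.12 in wild type, while the other loci at the floor had medians of 7.05 in gcn2 and 7.05 in wild type. When the 3547 loci were split into 4 groups of about equal size by their wild-type total RNA level, the lowest group (6.00 to 6.50) held 11 members, or 1.24% of its loci. The next groups held 18 (2.03%) and 37 (4.17%), and the highest (7.95 to 12.79) held 84 (9.47%). The members’ non-polysomal means ran down to 4.17 in gcn2 and 3.71 in wild type, and array background was not analysed here. In bulk RNA, fewer cells that express a transcript and less of it in each cell cannot be told apart.

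The brightest member in wild-type total RNA was AT1G11860. It read 12.29, 12.27 and 11.89 in gcn2 and 12.12, 12.12 and 11.94 in wild type, and its loading was 1.22 (SE 0.20) in gcn2 and 1.34 (SE 0.20) in wild type, close to the limit. AT3G11630 read 12.14, 12.05 and 11.89 in gcn2 total RNA and 12.07, 12.01 and 11.52 in wild-type total RNA, with a loading of 1.83 (SE 0.21) in gcn2 and 1.85 (SE 0.21) in wild type. AT5G02870, AT4G23670 and AT1G09310 followed. Their total RNA means were 11.35 ± 0.12, 11.58 ± 0.13 and 11.34 ± 0.06 in gcn2, and 11.56 ± 0.19, 11.51 ± 0.18 and 11.28 ± 0.09 in wild type (SD, n = 3 each), in that order. Signals of different probe sets are not calibrated against each other, so this is an order of signals and not of transcript numbers.

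Each fraction was also set against total RNA. Each array is on its own scale, so the side on which a member departs is relative to that scale. Total RNA lay between the fractions in 101 of 150 members in gcn2 and 87 in wild type. This order, with non-polysomal RNA lowest, held for 18.7% of the 3547 loci at the floor in gcn2 and 18.4% in wild type. Only loci with a polysomal signal at or above the non-polysomal one can show it, so the choice favours it. Total RNA lay above polysomal RNA in 43 members in gcn2 and 58 in wild type, against 1778 and 1769 of the 3547 loci. In the members polysomal minus total RNA had a median of 0.37 in gcn2 and 0.24 in wild type, while non-polysomal minus total RNA had a median of −1.38 in gcn2 and −1.40 in wild type. On the deposited scale the difference was thus mostly a low non-polysomal signal. With control centring the members' medians were 0.03 in gcn2 and 0.14 in wild type for polysomal RNA, and −2.57 in gcn2 and −2.45 in wild type for non-polysomal RNA. The non-polysomal median of the other loci at the floor, however, was then −1.24 in gcn2 and −1.12 in wild type. The total RNA signal was nearer to the polysomal than to the non-polysomal signal in 121 of 150 members in gcn2 and 125 in wild type. Among the other loci at the floor this held for 64.0% in gcn2 and 68.6% in wild type. It held more often, for 90.0% in gcn2 and 90.7% in wild type, among the 150 least loaded loci at the floor, those with the lowest value of the larger loading. With control centring these shares were 96% in gcn2 and 93.3% in wild type for the members, 87.4% and 84.6% for the other loci, and 42.0% and 60.7% for the least loaded, so their order depends on the scaling. On the deposited scale the least loaded loci also departed in non-polysomal RNA. Their non-polysomal signal lay above total RNA by a median of 1.48 in gcn2 and 1.49 in wild type, and their polysomal signal differed from it by −0.16 in gcn2 and −0.05 in wild type. With control centring their medians were 0.29 in gcn2 and 0.45 in wild type for non-polysomal RNA, and −0.50 in gcn2 and −0.16 in wild type for polysomal RNA, so in gcn2 the fraction with the larger departure depends on the scaling. All these contrasts share the fraction arrays that chose the loci, and the fraction arrays had the larger 3′ excess named above, whose part was not tested.

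**Figure D3:**
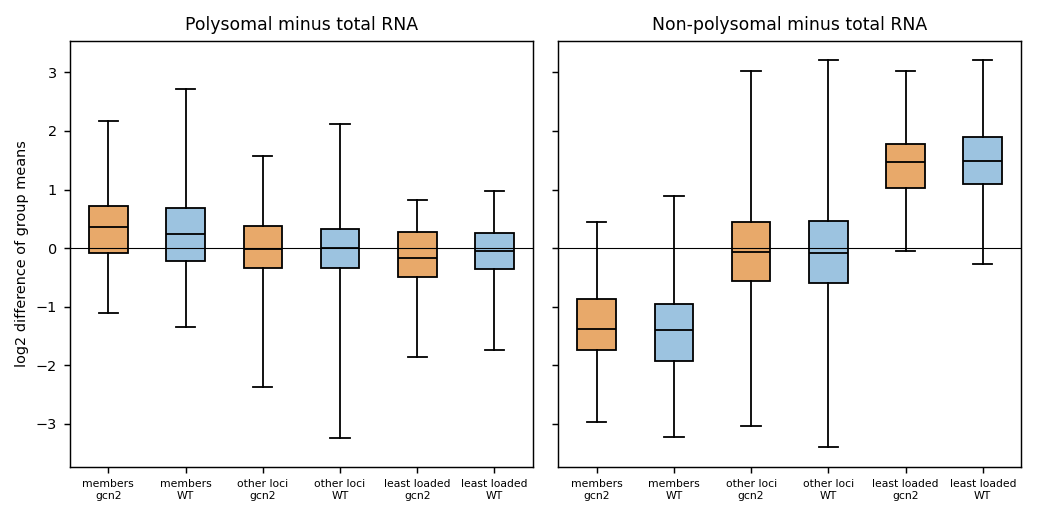
Polysomal (left) and non-polysomal (right) minus total RNA, as log2 differences of group means, for the members, the 3397 other loci at the floor and the 150 least loaded loci, which are part of the other loci, in gcn2 (orange) and wild type (blue). Boxes span the quartiles with the median as a line, and whiskers reach the lowest and highest locus. The members' polysomal medians are 0.37 and 0.24, and their non-polysomal medians are −1.38 and −1.40, in gcn2 and wild type.

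The members varied widely in this respect. Polysomal minus total RNA ran from −1.11 to 2.17 in gcn2 and from −1.34 to 2.72 in wild type, and the genotypes, which share no array, correlated at r = 0.91 over the 150 members (Pearson, a description). On the deposited scale, used for all values that follow, the polysomal signal was above total RNA in both genotypes in 87 members and below it in both in 38. In gcn2 the polysomal signal was above total RNA in 71.3% of members, against 49.9% of the loci at the floor. In wild type these shares were 61.3% and 50.1%. AT1G64360 had the largest excess. It read 8.35, 9.08 and 8.28 in gcn2 polysomal, 6.86, 7.02 and 6.22 in gcn2 non-polysomal and 7.06, 6.01 and 6.14 in gcn2 total RNA. In wild type it read 8.81, 9.23 and 8.89 in polysomal, 7.18, 7.05 and 6.62 in non-polysomal and 7.03, 6.70 and 5.04 in total RNA. Its total RNA mean was thus below both fractions in each genotype, as it was for AT1G67860, AT5G18600 and AT4G14020, which made up the 4 such members. For AT1G67860 total RNA read 7.49, 6.88 and 6.42 in gcn2, against 7.17, 7.91 and 6.66 in gcn2 non-polysomal RNA, and 6.68, 7.19 and 5.75 in wild type, against 7.35, 7.76 and 7.18 in wild-type non-polysomal RNA, so that single arrays overlap in both genotypes. Each array is on its own scale, so total RNA need not lie between the fractions.

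At the other end, AT3G53560 had total RNA values of 9.11, 9.30 and 9.33 in gcn2 and 9.62, 9.03 and 9.38 in wild type. Its polysomal values were 8.39, 8.03 and 7.99 in gcn2 and 8.25, 7.97 and 7.79 in wild type, and its non-polysomal values were 6.96, 6.81 and 5.98 in gcn2 and 6.95, 6.78 and 5.93 in wild type. Total RNA lay above both fractions on every array, and this was the 1 member whose polysomal signal was at least 1 below total RNA in both genotypes. AT5G55220 (polysomal minus total −0.76 in gcn2 and −1.31 in wild type) and AT4G02930 (−0.60 in gcn2 and −1.26 in wild type) were the next lowest in wild type.

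Some members are neighbours on a chromosome. In the order of protein-coding genes in the RefSeq table of the TAIR10.1 assembly, the loci at the floor formed 543 adjacent pairs, and 50 pairs held at least 1 member. In 3 of these both genes were members, namely AT1G64360 with the best loaded locus AT1G64370, AT3G15680 with AT3G15690, and AT5G07020 with AT5G07030. Their smaller loadings were 1.87 and 3.10, 1.72 and 1.55, and 1.57 and 2.21, in the order named. Of the 53 neighbours of members in these pairs 11.3% were members, while 4.88% of the loci in all such pairs were. The first share counts each of the 3 pairs from both sides. Only 49 members had such a neighbour, and clustering along the chromosomes was not tested. Members lay on all 5 chromosomes, with 39, 21, 30, 27 and 33 on chromosomes 1 to 5. That is 26.0%, 14%, 20.0%, 18% and 22.0%, against 26.0%, 14.8%, 21.1%, 14.2% and 23.9% of the loci at the floor. Among nuclear genes with a symbol and the same floor, 41 of 632 (6.49%) had a smaller loading at or above the members' limit.

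Total RNA of gcn2 set against that of wild type shows whether the level of these transcripts differed without regard to ribosomes, and it is the measurement that the choice of loci used least. None of the 150 members passed. In limma 0 of 150 had an adjusted p under 0.05, against 0.0352% of all 22746 probe sets, and 4 had an unadjusted p under 0.05, against 2.49%. The lowest adjusted p of a member was 1.00, and over all alternatives run it was 0.279. In 57 members gcn2 was higher and in 93 lower, with a median difference of −0.06 and a range of −0.41 to 0.58, while the median was −0.01 over the other loci at the floor and 0.01 over all probe sets. The members' median level was 8.02, 8.08 and 8.09 on the gcn2 arrays and 8.19, 7.97 and 8.13 on the wild-type arrays. The arrays of the genotypes overlap, so this difference is within the spread between arrays, and the median ran from −0.11 (without wild-type replicate 2) to −0.0085 (without wild-type replicate 1) when 1 array was left out. The floor was set on wild type, and setting it on gcn2 kept 148 of the 150 members.

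The members that came nearest to a difference were the following, none of which passed. AT1G54410 read 11.08, 10.93 and 10.96 in gcn2 and 10.54, 10.89 and 10.14 in wild type, a difference of 0.46 (SE 0.20). The gcn2 arrays of this dehydrin lay above all 3 wild-type arrays. AT2G10940 read 11.00, 10.87 and 11.29 in gcn2 and 10.91, 10.95 and 10.13 in wild type, a difference of 0.39 (SE 0.18). AT1G09750 read 9.85, 9.90 and 9.86 in gcn2 and 9.83, 9.72 and 8.32 in wild type, a difference of 0.58 (SE 0.28). AT1G52510 read 8.25, 8.34 and 8.47 in gcn2 and 7.99, 8.34 and 7.75 in wild type, a difference of 0.32 (SE 0.16). Wild-type replicate 3 was the lowest array for all 4 of these loci, and without it the differences are 0.27, 0.12, 0.09 and 0.19 in the order given. On the other side, AT2G30060 read 7.50, 7.67 and 7.43 in gcn2 and 7.85, 7.58 and 8.16 in wild type, a difference of −0.33 (SE 0.15). AT1G73630 read 6.86, 7.01 and 6.67 in gcn2 and 7.36, 6.77 and 7.65 in wild type, a difference of −0.41 (SE 0.19). AT2G44760 read 6.63, 6.84 and 6.97 in gcn2 and 7.05, 7.02 and 7.09 in wild type, a difference of −0.24 (SE 0.12), without overlap. AT3G43520 read 7.76, 8.09 and 7.89 in gcn2 and 8.37, 8.07 and 8.09 in wild type, a difference of −0.26 (SE 0.14). Wild-type replicate 3 was the highest array for AT2G30060 and AT1G73630, whose differences are −0.18 and −0.22 without it. The difference is −0.15 for AT2G44760 without gcn2 replicate 1 and −0.17 for AT3G43520 without wild-type replicate 1. Arrays did not overlap, 3 against 3, in 3 members with gcn2 higher and 2 with gcn2 lower, while over all probe sets 3.4% were higher in this way and 3.66% lower.

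**Figure D4:**
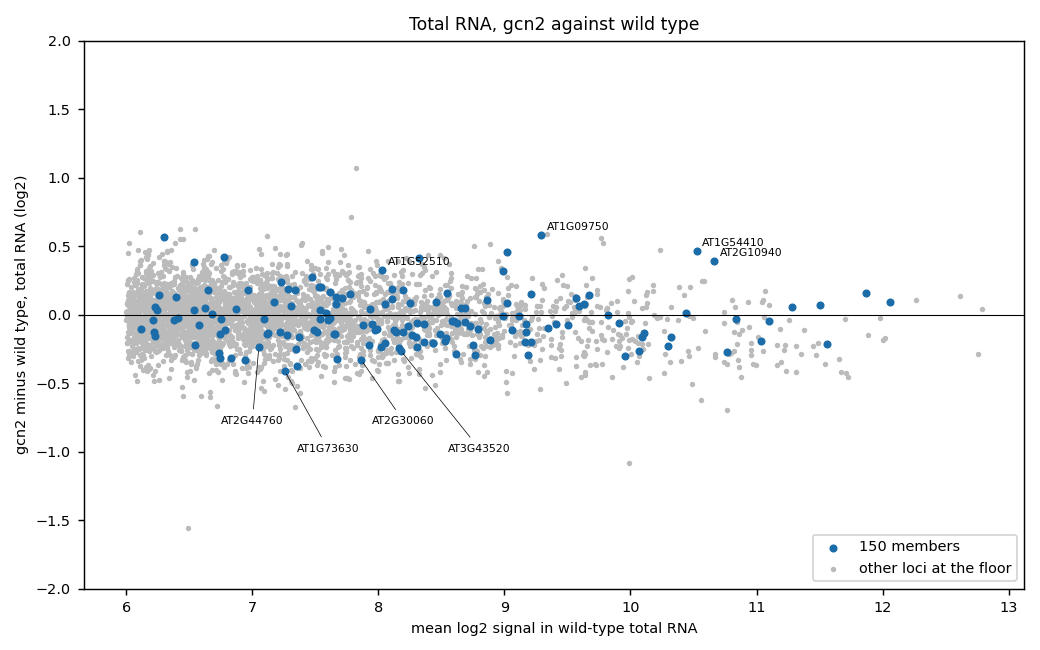
Difference between gcn2 and wild type in total RNA (log2, vertical axis) against the mean log2 signal in wild-type total RNA (horizontal axis) for the 150 members (blue) and the 3397 other loci at the floor (grey). The 8 members with the highest and lowest moderated statistics are labelled. The members lie within the cloud of the other loci, between −0.41 and 0.58.

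The fractions were also compared between the genotypes. The choice of loci used these arrays, so the members' values are a description of the fit on the whole table. In polysomal RNA 0 of 150 members had an adjusted p under 0.05 in limma, against 0.022% of all probe sets, and 11 had an unadjusted p under 0.05, against 5.39%. In non-polysomal RNA 0 passed, against 0.0791%, and 14 had an unadjusted p under 0.05, against 11.4%. The median difference was 0.05 in polysomal and 0.03 in non-polysomal RNA, against 0.02 and 0.01 over all probe sets. Both turn negative, to −0.20 and −0.13, when each array is centred on its BioB and BioC controls, which moves the median of all probe sets to −0.23 and −0.16. All probe sets move by this one amount. Both medians also turn negative when wild-type replicate 3 of the same fraction is left out, to −0.033 in polysomal and −0.012 in non-polysomal RNA.

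Replicate numbers paired the fraction arrays. With that number added as a blocking term (12 fraction arrays), 4 of 150 members had an adjusted p under 0.05 in non-polysomal RNA, against 1.89% of all probe sets, and 30 had an unadjusted p under 0.05, against 17.4%. The 4 were 2 higher in gcn2, against 0.835%, and 2 lower, against 1.05%, so each share is near its background. In polysomal RNA 0 of 150 passed in that fit, against 0.558%, and 31 had an unadjusted p under 0.05, against 10.6%. AT3G10020 read 5.70, 5.96 and 5.69 in gcn2 and 6.30, 6.59 and 6.61 in wild type, and fell by 0.72 (SE 0.13, limma adjusted p = 0.0125), with gcn2 below all wild-type arrays. AT1G23130 read 8.96, 9.03 and 9.16 in gcn2 and 9.34, 9.92 and 9.68 in wild type, again without overlap, and fell by 0.60 (SE 0.14, limma adjusted p = 0.0418). AT4G39860 read 6.33, 5.75 and 5.75 in gcn2 and 5.45, 5.19 and 5.41 in wild type, with gcn2 above all wild-type arrays, and rose by 0.60 (SE 0.14, limma adjusted p = 0.0436). AT4G05400 read 5.15, 5.14 and 4.86 in gcn2 and 4.90, 4.64 and 3.93 in wild type, and rose by 0.56 (SE 0.14, limma adjusted p = 0.0461), with 1 gcn2 array below the highest wild-type array. None of these values lay above 5.18, the highest array median, so this rise is between dim signals. Control centring, as above, moves all non-polysomal differences downward by one amount, which makes the rises smaller and the falls larger. Without the block the adjusted p was 0.206 for AT3G10020, 0.192 for AT1G23130, 0.292 for AT4G39860 and 0.379 for AT4G05400. The choice of loci used these arrays too, so these p values describe the fit and are no independent test of the members.

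The polysomal values of AT3G10020 and AT1G23130 lay on the same side, although the test did not pass there. AT3G10020 read 7.50, 7.83 and 7.72 in gcn2 and 7.89, 8.39 and 8.47 in wild type in polysomal RNA, a difference of −0.57 (SE 0.13, limma adjusted p = 0.067 with the block). AT1G23130 read 10.84, 10.94 and 10.60 in gcn2 and 11.14, 11.52 and 11.20 in wild type in polysomal RNA, a difference of −0.50 (SE 0.14, limma adjusted p = 0.158 with the block). In total RNA the genotypes overlapped. AT3G10020 read 7.02, 6.67 and 6.79 in gcn2 and 6.06, 7.25 and 6.64 in wild type, and AT1G23130 read 10.03, 9.94 and 9.57 in gcn2 and 9.87, 10.25 and 9.60 in wild type.

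**Figure D5:**
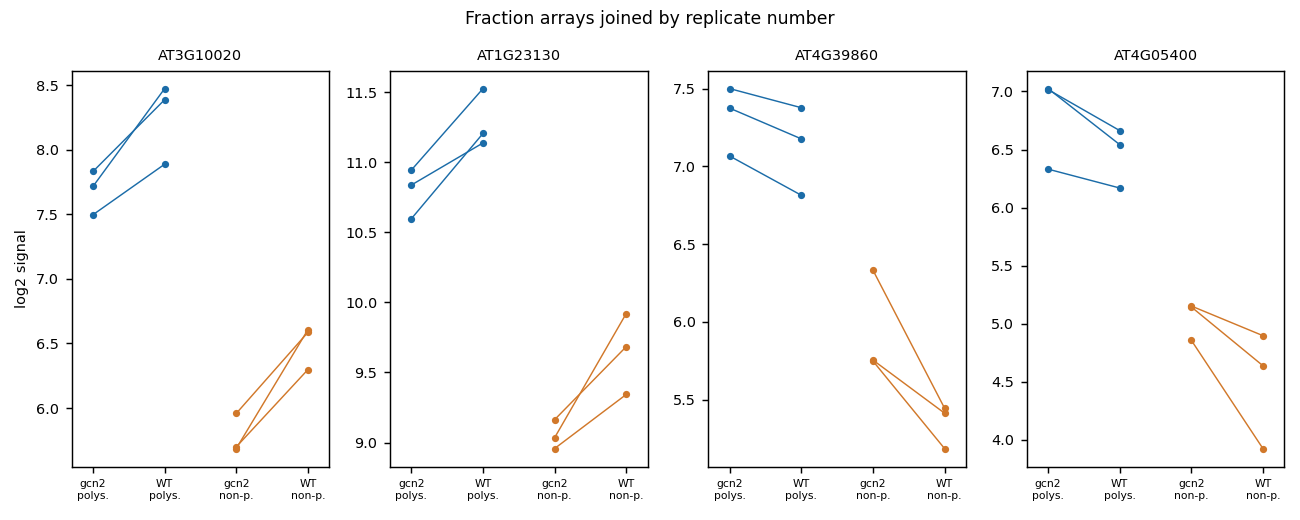
Log2 signal on the fraction arrays, gcn2 and wild type joined by replicate number, for the 4 members that passed in non-polysomal RNA with the replicate block (polysomal blue, non-polysomal orange, each panel on its own scale). In non-polysomal RNA all 3 lines of a locus run the same way, upward from gcn2 to wild type for AT3G10020 and AT1G23130 and downward for AT4G39860 and AT4G05400.

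The loading of the members was close to equal in the genotypes, which the choice by the smaller loading favours. The difference, gcn2 minus wild type, had a median of −0.02 and ran from −0.70 to 0.68, with 70 members larger in gcn2 and 80 larger in wild type. It was within 0.3 in 127 members, and within 0.3 in 74.6% of the loci at the floor. In limma 0 of 150 members had an adjusted p under 0.05, against 0.0044% of all probe sets (1 of 22746), and 1 had an unadjusted p under 0.05, against 5.06%. AT1G24575 had a loading of 1.60 in gcn2 and 2.30 in wild type, a difference of −0.70 (SE 0.33, or 0.27 with the replicate block). Its non-polysomal values were 6.49, 6.40 and 5.58 in gcn2 and 6.19, 5.60 and 5.59 in wild type, and the genotypes overlap. AT2G15000 had a loading of 1.72 in gcn2 and 2.23 in wild type, a difference of −0.51 (SE 0.52). That difference rests on 1 array, since its non-polysomal values were 6.88, 6.28 and 6.15 in gcn2 and 6.63, 6.02 and 4.67 in wild type, and it is 0.04 without wild-type non-polysomal replicate 3. AT3G26450 had a loading of 1.91 in gcn2 and 2.42 in wild type, a difference of −0.51 (SE 0.26). On the other side, AT1G73655 had a loading of 1.90 in gcn2 and 1.22 in wild type, a difference of 0.68 (SE 0.35). AT2G38730 had a loading of 2.00 in gcn2 and 1.43 in wild type, a difference of 0.58 (SE 0.31). AT1G19740 had a loading of 2.01 in gcn2 and 1.5 in wild type, a difference of 0.51 (SE 0.33). When 1 array was left out, the difference ran from 0.41 (without wild-type non-polysomal replicate 1) to 1.03 (without its replicate 3) for AT1G73655, and from 0.38 (without gcn2 non-polysomal replicate 3) to 0.81 (without its replicate 1) for AT2G38730. None of these 6 differences passed in limma, with adjusted p values of 0.952 to 0.993 and, with the block on the 12 fraction arrays, of 0.414 or more. With the block 0 of 150 members passed, against 0.0132% of all probe sets, and 8 had an unadjusted p under 0.05, against 8.96%.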

How the data were processed

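Analysed were log2 signals of 18 Affymetrix ATH1 arrays, as deposited by the authors in 1 table. The submitters' processing notes list RMA, affy and MAS5 without saying which made these values, and the summarization is not given in the sources used here. Groups and replicate numbers come from the sample titles. No pair of arrays among 153 held identical values. Precision is limited by the 3 arrays per group. The GCN2 transcript is not analysed here.

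Of 22810 probe sets the 64 controls were left out. Names come from the platform annotation (13513 probe sets with 1 gene, 503 with several, 8730 not listed and unnamed here) and the RefSeq gene table of TAIR10.1, which matched all 150 members and served for names and neighbours. Members were chosen by the rule in the report. The members and lists were chosen with earlier results of these data known. Functional classes and protein lengths could not be used, since no product name or protein was at hand.

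Each comparison was a contrast in limma 3.58.1 (R 4.3.3) in a model of 6 group means with 12 residual degrees of freedom and Benjamini-Hochberg adjustment over all 22746 probe sets at 0.05. This fit was run on simulated data with independent noise on each array. The simulation held no replicate effect, so it does not cover the paired fraction arrays or the fits with the replicate block. With 3 against 3 arrays an exact permutation test of a lone value cannot go below 0.1. Named were the 12 highest-ranked members, the 3 on each side of the limit, the 4 highest and 4 lowest statistics in total RNA, the 3 highest and 3 lowest differences in loading, and the 5 brightest in wild-type total RNA. Loci named for polysomal against total RNA, for neighbours and from the blocked fit were chosen after their values were seen.

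Arrays of the same number deviated together from their group means in all 6 pairs of fraction groups (r of 0.184 to 0.588), so the numbers pair the fraction arrays. Total RNA was not paired between the genotypes (r of 0.0981, 0.0157 and 0.429). Wild-type total RNA deviated with 3 of the 4 fraction groups (r of 0.147 to 0.305) but not throughout with wild-type polysomal RNA (0.00117 to 0.404), and gcn2 total RNA did so with none throughout (−0.168 to 0.346). Fraction minus total is given as differences of group means, which pairing leaves unchanged, with no test. Alternatives were the replicate block on 18 or 12 arrays, quantile normalization, centring on BioB and BioC, a filter on dim probe sets (mean under 5), a trended and robust prior, only the groups compared, other choices of members, and leaving out each replicate.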

Additional observations from a re-analysis of the deposited data

How the results depend on the processing

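Membership changed little. Of the 150 members 122 to 148 were chosen again with a floor of 5 or 7 or a floor on gcn2, with another ranking or with quantile normalization, 150 with 1 probe set a locus, and 133 to 135 without a replicate number. No member passed in gcn2 against wild type in total or polysomal RNA, or for the difference in loading, under any alternative run. In non-polysomal RNA 4 members passed with the replicate block on 12 arrays and 0 in the others.

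Counts over all probe sets moved more, and the causes were not tested. In total RNA the 8 calls became 4 centred on BioB and BioC, 3 without dim probe sets and 4 with only the groups compared. They ranged from 4 (without gcn2 replicate 3) to 15 (without wild-type replicate 2) when an array was left out. In polysomal RNA the 5 calls became 15 with the replicate block on 18 arrays and 127 on 12, and 2 to 6 when an array was left out, with 2 without wild-type replicate 2 and 3 without gcn2 replicate 1 or 2. The members' median there was −0.20 with control centring, and −0.033 (without wild-type replicate 3) to 0.088 when an array was left out. In non-polysomal RNA the 18 calls became 62 with the block on 18 arrays, 429 on 12, 56 with quantile normalization, 10 with control centring and 7 without dim probe sets. They were 12 to 110 when an array was left out, with 110 without wild-type replicate 1, and the members' median was −0.13 with control centring and −0.012 to 0.089 when an array was left out.

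In loading, control centring moved the median of all probe sets to 0.81 in gcn2 and 0.86 in wild type, against −0.04 and −0.07 on the deposited scale. It gave 15850 calls in gcn2 (15607 higher, 243 lower) and 17241 in wild type (17065 higher, 176 lower), against 6492 (3443 higher, 3049 lower) and 6490 (3468 higher, 3022 lower). The members' medians were 2.43 and 2.51 with it and 1.48 and 1.46 with quantile normalization. For the difference in loading the 1 call became 3 with the block on 12 arrays, 0 without dim probe sets or with only the groups compared, and 0 to 2 when an array was left out. It was 0 without wild-type polysomal replicate 1 or 3, wild-type non-polysomal replicate 2 or 3, or gcn2 non-polysomal replicate 1 or 2, and 2 without gcn2 non-polysomal replicate 3. The members' median was −0.11 with control centring and −0.082 (without wild-type polysomal replicate 3) to 0.076 (without wild-type non-polysomal replicate 3) when an array was left out. AT2G15000 ranged from −0.94 to 0.044 and changed sign, to 0.044, without wild-type non-polysomal replicate 3. The replicate block changed no other call of a member.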
